A study of Mus musculus with 24 samples.

Results

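Late night, zeitgeber time 22 (ZT22, hours after lights on), was examined in mouse liver with and without the clock gene Arntl (Bmal1) in hepatocytes. The 4 libraries whose count columns carry this time in their name were taken, 2 of HepKO and 2 of HepWT, out of 24 libraries in the series. The other 20 libraries, from ZT2, 6, 10, 14 and 18, served to estimate the spread between replicates and to show which differences belonged to late night.

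Total RNA of liver was sequenced in bulk from C57BL/6 mice of 8 to 12 weeks kept on night restricted feeding. HepKO mice carried 1 copy of an albumin-Cre transgene (Alb::Cre +/0) together with floxed Bmal1 (Bmal1 fl/fl), and HepWT mice carried the floxed alleles without Cre (Alb::Cre 0/0, Bmal1 fl/fl). Every group therefore had the floxed gene, and no group without it was included. The albumin promoter drives Cre in hepatocytes, so Kupffer, endothelial, stellate and other liver cells keep Arntl. Sequencing covered 6 times in 12 groups of 2 libraries. The sources used here do not say whether the 2 libraries of a group came from separate animals, and p-values therefore cover the spread between samples, which may be technical.

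The circadian clock is a transcription loop. BMAL1 pairs with CLOCK or NPAS2, binds E-box elements and drives the Per and Cry repressors, the REV-ERB receptors (Nr1d1, Nr1d2) and output factors such as Dbp, and the PER and CRY proteins then block the pair. The REV-ERB receptors repress genes with ROR elements, among them Arntl, Npas2, Clock and Cry1. In mouse liver the REV-ERB genes are at their lowest late in the night, which is when transcription of their targets is usually high.

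Total counts at ZT22 were 27851236 and 13915394 in HepKO replicates 1 and 2, and 26445198 and 24601599 in HepWT replicates 1 and 2, within a range of 12997689 to 30677807 over all libraries. Levels are given as CPM, the count scaled by the TMM-adjusted library size. HepKO replicate 1 of ZT22 carried RNA of markers that the other 3 libraries of that time nearly lacked. Counts of Pnlip, a pancreatic lipase, were 216 in it against 0, 0 and 0, and those of Ctrb1, a digestive protease, were 240 against 0, 0 and 1. The adipokine gene Adipoq had 37 counts in it against 1, 0 and 0. The summed level of the 8 exocrine pancreas markers was 63.4 and 39.3 CPM in HepKO and 10.3 and 11.4 CPM in HepWT. Cela1, 1 of the 8, had 979 and 537 counts in HepKO and 260 and 265 in HepWT. In HepKO replicate 2 that sum was nearly all Cela1, while Pnlip, Ctrb1, Cpa1 and Prss2 had 0 counts. The summed level of the 7 adipocyte markers was 19.8 and 7.91 CPM in HepKO and 11.5 and 9.20 CPM in HepWT. Over the other 20 libraries those sums ran from 8.07 to 48.5 CPM and from 5.82 to 15.7 CPM. Their part in the results below was not tested, and counts without this library are given beside the main ones.

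The deleted gene was examined first. Arntl (ENSMUSG00000055116) lies on chromosome 7 from 113207465 to 113314126 of GRCm38. At ZT22 its level was 17.7 and 15.9 CPM in HepKO and 44.9 and 39.0 CPM in HepWT. Both HepKO libraries thus lay below both HepWT libraries, in the direction of the labels, and the difference was -1.31 ± 0.17 (log2, SE; n = 2 a group), a 2.49-fold decrease (adjusted p = 0.000355, edgeR's quasi-likelihood test with Benjamini-Hochberg adjustment). HepKO libraries of the other 5 times ran from 10.3 to 16.3 CPM, whereas HepWT libraries ran from 1.27 CPM at ZT10 to 46.0 CPM at ZT2. Averaged over the other 5 times, Arntl was therefore higher in HepKO, by 0.32 on the log2 scale, although the same gene was lower at ZT2 (-1.51). Counts cover the whole gene, so transcripts with exons outside the floxed part count as well. In bulk liver, fewer cells of a type and less RNA per cell cannot be told apart.

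Sequences just upstream or downstream of transcription starts are shown for 4 genes named here, because each holds an element through which clock factors are known to act. They are RefSeq promoter windows of GRCm38.p6, read 5' to 3' on the strand of the gene. Capitals mark the E-box CACGTG or the core of the ROR element, TAGGTCA, both searched on either strand (the E-box reads the same on both).
Arntl promoter stretch, chr7:113207530-113207559, plus strand: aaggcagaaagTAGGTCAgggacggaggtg
Cry1 promoter stretch, chr10:85185083-85185139, minus strand: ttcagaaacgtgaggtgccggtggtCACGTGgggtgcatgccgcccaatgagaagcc
Slc45a3 promoter stretch, chr1:131970468-131970524, plus strand: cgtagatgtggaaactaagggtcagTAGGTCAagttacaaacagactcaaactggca
Ciart promoter stretch, chr3:95882241-95882369, minus strand: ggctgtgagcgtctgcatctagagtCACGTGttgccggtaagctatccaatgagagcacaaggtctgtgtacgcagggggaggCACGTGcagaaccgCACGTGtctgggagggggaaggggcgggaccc
In Arntl the ROR core began 30 bases after a start at 113207511. In Slc45a3 the core began 116 bases before a start at 131970609, which lies inside the gene (131962967 to 131982969). The E-box of Cry1 began 60 bases before its start, and Ciart, which encodes a repressor of the CLOCK and BMAL1 pair, had E-boxes at 116, 58 and 44 bases before its start. Of the 22 genes with a late-night departure described below, 19 had a promoter entry, with 30 windows of 300 bases from 250 before to 50 after a start. The ROR core was in 2 of these windows (6.67%) and the E-box in 1 (3.33%). Of all 32851 windows 2.61% and 7.15% held them, and of the 14567 windows of tested genes 2.07% and 9.46%. Among 239 windows of 178 genes called at ZT22, 4.60% held the ROR core and 10.0% the E-box. A match describes letters in a window and does not show binding.

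At ZT22 fewer genes were called between the livers of the 2 genotypes than at any other time sampled. Of 17275 genes tested, 145 were higher and 88 lower in HepKO at an adjusted p below 0.05, which is 1.35% of the tested genes. Of these, 89 and 47 differed at least 2-fold. An unadjusted p below 0.05 was reached by 2066 genes. The same model called 163 higher and 158 lower at ZT2 (1.86%), and the neighbouring ZT18 had 360 and 294 (3.79%). The counts were largest at ZT10 (644 and 688, 7.71%) and ZT14 (795 and 525, 7.64%), with ZT6 between (440 and 417, 4.96%). The median absolute log2 difference of all tested genes was 0.188 at ZT22, 0.191 at ZT2 and 0.238 at ZT14. The counts are set side by side, their difference was not tested, and only the ZT22 counts were refitted in other ways. Without HepKO ZT22 replicate 1 there were 75 higher and 33 lower, and without HepKO replicate 2 there were 93 and 38. Leaving out HepWT replicate 1 gave 75 and 61, and HepWT replicate 2 gave 61 and 64.

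**Figure D1:**
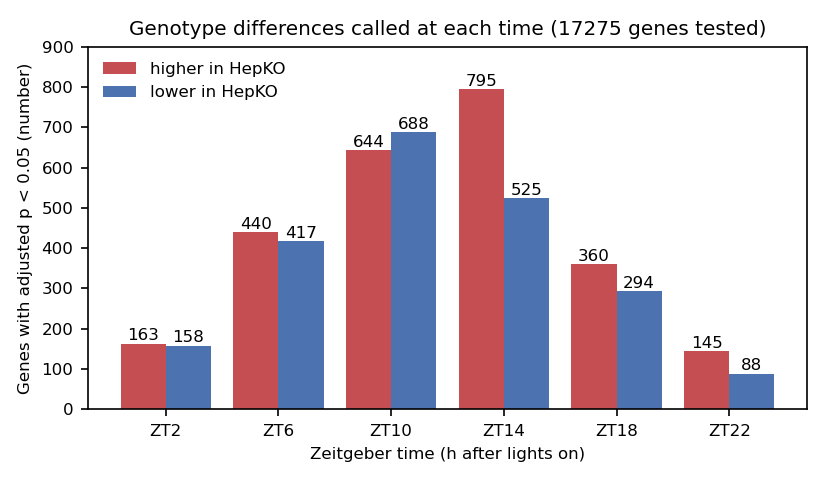
Number of genes with an adjusted p below 0.05 for the difference between HepKO and HepWT at each zeitgeber time (h), higher (red) or lower (blue) in HepKO, of 17275 tested, from 2 libraries a group. The bars of ZT22, 145 and 88, are the lowest in each direction, and those of ZT10 and ZT14 are the tallest.

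Most genes called at ZT22 differed in the same direction at the rest of the day. Averaged over the other 5 times, whose 20 libraries are not those of ZT22, 2116 genes were higher and 2162 lower in HepKO (12.2% and 12.5% of those tested, or 24.8% in all). Of the 145 genes higher at ZT22, 142 were among the 2116 (97.9% of the first list and 6.71% of the second), and of the 88 lower genes 84 were among the 2162 (95.5% and 3.89%). The reverse view started from 329 genes at least 2-fold higher and 340 at least 2-fold lower over the other times. Their median differences of 1.59 and -1.47 (log2) stood beside medians of 1.06 and -1.20 at ZT22. These genes were chosen for their values at the other times, which enlarges those values. Across 11873 genes with a mean of at least 1 log2 CPM, the 2 sets of differences had a Pearson correlation of 0.739, as a description, since genes are not independent replicates.

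The 7 genes called at ZT22 without a call in the same direction over the other times are named after their values were seen. Smad2, which carries TGF-beta signals to the nucleus, was at 34.7 and 37.2 CPM in HepKO and 28.5 and 26.8 CPM in HepWT (log2 0.38 ± 0.08, adjusted p = 0.0291). Pla2g12a, a secreted phospholipase, was at 9.28 and 8.93 CPM in HepKO and 4.16 and 4.17 CPM in HepWT (log2 1.13 ± 0.24, adjusted p = 0.0192). The third higher gene is a predicted model. The 4 lower ones were Dach1, Zfp383, Apbb3 and Arntl, which was called in the opposite direction over the other times (0.32, adjusted p = 0.00817). A call at ZT22 without such a call elsewhere does not show a difference between times, and of these genes Arntl was the only one whose difference at ZT22 departed from the other times by the test that follows.

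**Figure D2:**
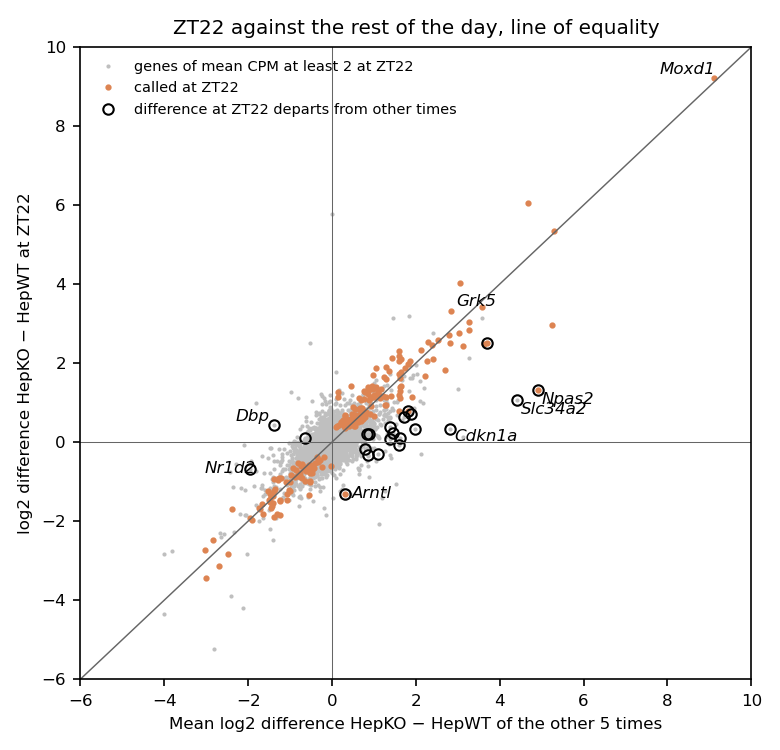
Fitted log2 difference HepKO − HepWT at ZT22 (vertical) against the mean difference of the other 5 times (horizontal), 1 point a gene, with the line of equality. Genes called at ZT22 (orange) lie mostly along the line, while the circled genes, whose difference at ZT22 departed from the other times, lie mostly below it, as Npas2 does with 1.31 at ZT22 against 4.91.

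To find what belonged to late night, the genotype difference at ZT22 was tested against the mean difference of the other 5 times, here called the departure. It passed for 22 genes (0.127% of those tested), 19 with a negative (0.11%) and 3 with a positive departure (0.0174%), and 979 genes had an unadjusted p below 0.05. The same test centred on each other time called 38 genes at ZT2 (0.22%), 57 at ZT6 (0.33%), 98 at ZT10 (0.567%), 107 at ZT14 (0.619%) and 3 at ZT18 (0.0174%). All 19 genes with a negative departure were called higher in HepKO over the other 5 times, with a median difference of 1.59, and their median difference at ZT22 was 0.23. At ZT22 itself 3 of them were called higher in HepKO, 1 lower, and 15 were not called. In 6 of the 19 the 2 genotypes overlapped at ZT22, in 11 both HepKO libraries were higher, and in 2 both were lower. Over all tested genes, both HepKO libraries were above HepWT in 19.2% and below it in 19.5%, 38.7% in all.

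In these 19 genes it was HepWT that moved. Relative to its own other 5 times, HepWT at ZT22 was higher in all 19, each a call in its own right, by 0.57 to 3.41 (log2; median 1.11). HepKO at ZT22 was called in none of the 19, with values from -0.37 to 0.49 and a median of -0.03. The highest HepWT group mean fell at ZT22 in 11 of the 19 and at ZT2 in 8. Over the 6 times the highest group mean was 6.69 times the lowest in HepWT (median of the 19) and 1.39 times in HepKO. The 2 shifts and the departure share libraries, so they describe the same values in different ways.

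Clock factors stood among the departures, beginning with the activators. Npas2 (chromosome 1, 39193731 to 39363236), the paralogue of Clock that also pairs with BMAL1, was at 18.2 and 17.9 CPM in HepKO and 7.61 and 7.02 CPM in HepWT at ZT22. HepKO lay within the range of its other times (14.6 to 28.5 CPM), whereas HepWT lay near its ZT2 libraries (8.52 and 7.23 CPM) and far above those of ZT10 (0.11 and 0.17 CPM). The difference of 1.31 ± 0.23 at ZT22 (adjusted p = 0.00568) stood against 4.91 over the other times, a departure of -3.60 ± 0.29 (adjusted p = 1.15e-05). The call at ZT22 itself was lost without HepKO replicate 1 or either HepWT replicate (adjusted p from 0.0512 to 0.0767), while the departure kept its call without each of the 24 libraries.

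Arntl itself departed by -1.63 ± 0.19 (adjusted p = 0.000473), and it was the only gene of the 19 that was called lower at ZT22.

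The repressor Cry1 (chromosome 10, 85131700 to 85185064), whose E-box stretch is shown above, was at 63.7 and 66.1 CPM in HepKO and 55.1 and 47.6 CPM in HepWT. Both HepKO libraries were the higher ones, but the difference of 0.34 ± 0.13 was not called (adjusted p = 0.299). Over the other times it was 1.98, with HepWT as low as 5.46 CPM at ZT6, and the departure was -1.64 ± 0.15 (adjusted p = 2.46e-05). By single times the Cry1 difference was 1.93 at ZT2, 3.47 at ZT6, 2.59 at ZT10, 1.55 at ZT14 and 0.37 at ZT18, so ZT18 stood as close to 0 as ZT22 did.

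The positive departures included a repressor and an output factor that are high by day. Nr1d2 (REV-ERB beta) was at 8.48 and 10.9 CPM in HepKO and 15.01 and 15.6 CPM in HepWT, which was the lowest of the 6 HepWT times. Its difference of -0.68 at ZT22 was not called, against -1.95 over the other times (departure 1.26 ± 0.19, adjusted p = 0.00735). Dbp, a transcription factor of the PAR bZIP family, was at 3.22 and 2.61 CPM in HepKO and 1.73 and 2.68 CPM in HepWT, after HepWT had reached 137 CPM (mean of 2) at ZT10. Its departure was 1.83 ± 0.28 (adjusted p = 0.00723). Dbp overlaps another gene on the opposite strand, and the sources used here do not give the strand setting of the counting. The third was Apol9b, of the apolipoprotein L family, at 83.4 and 98.1 CPM in HepKO and 80.6 and 88.0 CPM in HepWT (departure 0.75 ± 0.14, adjusted p = 0.0396), a gene with a near-identical relative.

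**Figure D3:**
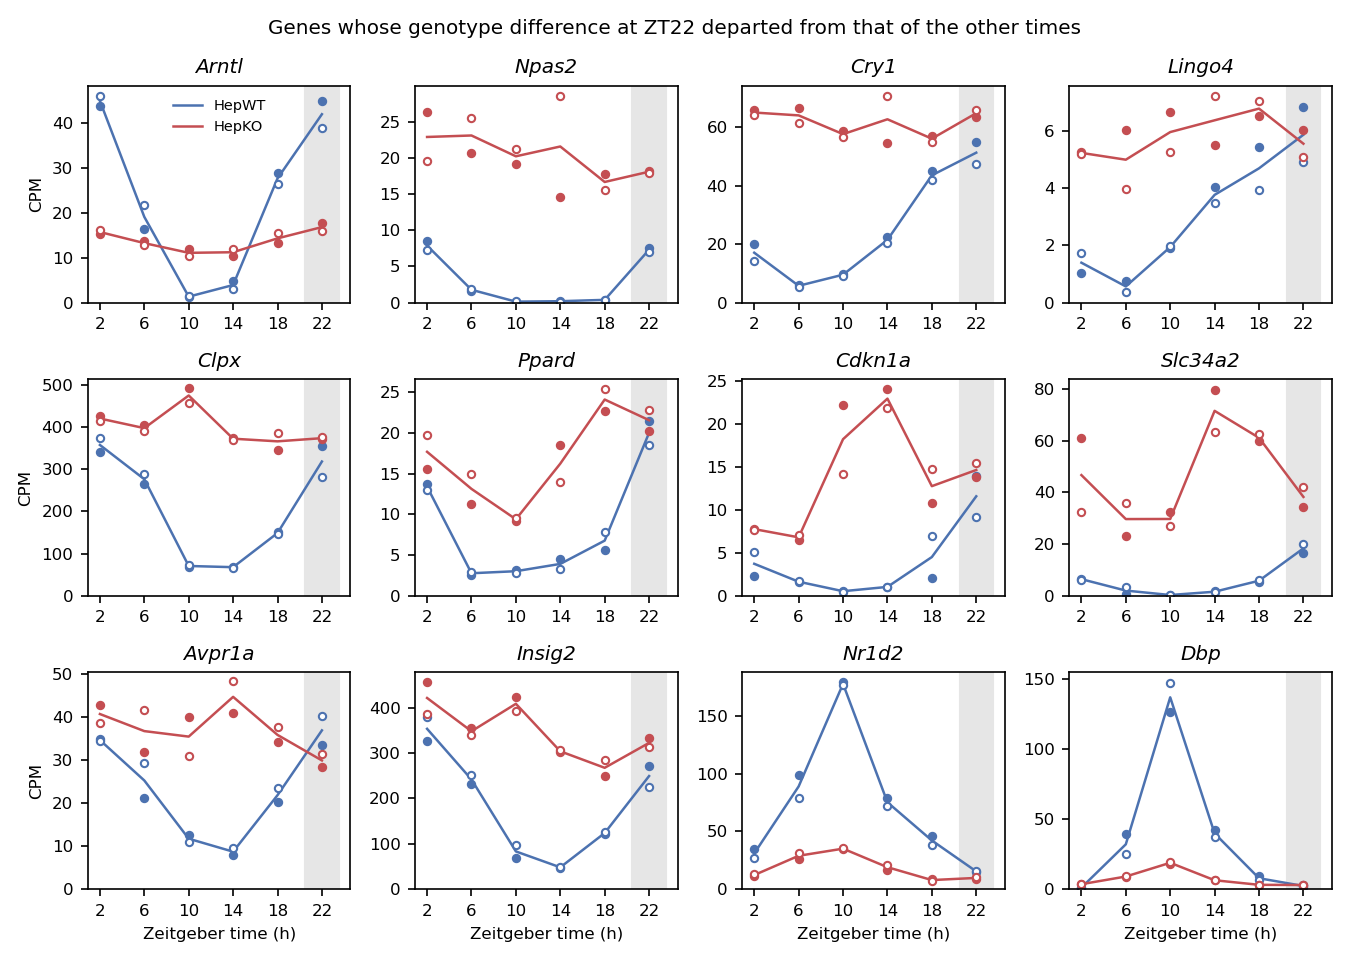
CPM of 12 genes with a late-night departure against zeitgeber time (h); points are libraries (filled, replicate 1; open, replicate 2), lines join group means, and the grey band marks ZT22. In the 10 genes with a negative departure the blue HepWT line climbs from ZT18 to ZT22, for example to 51.4 against 64.9 CPM in Cry1 and 318 against 373 CPM in Clpx, and it ends above the red HepKO line in Arntl, Avpr1a and Lingo4.

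Of the other negative departures named here, all but that of Avpr1a, a gene of the clock output list, lay outside the clock lists. Clpx (chromosome 9, 65294260 to 65330658), the ATPase subunit of the mitochondrial ClpXP protease, was at 370 and 376 CPM in HepKO and 354 and 282 CPM in HepWT. Its difference was 0.23 at ZT22 and 1.45 over the other times (departure -1.22 ± 0.11, adjusted p = 2.46e-05). Ppard, which encodes the fatty acid receptor PPAR delta, was at 20.3 and 22.9 CPM in HepKO and overlapped with HepWT at 21.5 and 18.5 CPM. HepWT had not exceeded 13.8 CPM at its other times, and the departure was -1.53 ± 0.20 (adjusted p = 0.00219).

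Cdkn1a, which encodes the cell cycle inhibitor p21, was at 13.8 and 15.5 CPM in HepKO and 13.99 and 9.16 CPM in HepWT. Its HepWT level was the highest of the 6 times, and its departure was -2.49 ± 0.43 (adjusted p = 0.0209). Slc34a2, a sodium and phosphate cotransporter, was at 34.3 and 42.2 CPM in HepKO and 16.7 and 20.02 CPM in HepWT, so both HepKO libraries remained above HepWT. HepWT libraries of other times had not exceeded 6.70 CPM, and the departure was -3.36 ± 0.44 (adjusted p = 0.00174). Avpr1a, the vasopressin receptor of hepatocytes, was at 28.4 and 31.5 CPM in HepKO and 33.6 and 40.3 CPM in HepWT, with both HepKO libraries below HepWT and a departure of -1.39 ± 0.19 (adjusted p = 0.00219). Insig2, which holds the cholesterol sensor SCAP in the endoplasmic reticulum, was at 333 and 313 CPM in HepKO and 273 and 226 CPM in HepWT. Its difference was 0.37 at ZT22 and 1.37 over the other times (departure -0.999 ± 0.16, adjusted p = 0.00917). Of the remaining negative departures, Lingo4 (-1.66), Slc45a3 (-1.20), Loxl4 (-1.19), Asap2 (-1.17), Lgalsl (-1.07) and Dtx4 (-1.02) were the larger, and Lrfn3 (-0.95), Mreg (-0.66) and Trim2 (-0.62) the smaller. Loxl4, a collagen cross-linking enzyme, and Dtx4, an E3 ubiquitin ligase, were still called higher in HepKO at ZT22.

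Of the 21 departures named here, 4 kept their call without each of the 24 libraries, those of Arntl, Clpx, Cry1 and Npas2. Of these, Arntl lost its call when the 5 low-depth HepKO libraries were left out (adjusted p = 0.104). Without HepKO ZT22 replicate 1, 15 were lost, among them Slc34a2 (adjusted p = 0.0584), Ppard (0.0601) and Avpr1a (0.0742), which were lost in no other such fit. Dbp (0.115 to 0.319) and Lrfn3 (0.0931 to 0.169) were lost without HepKO replicate 1 or HepWT replicate 1, and Nr1d2 (0.0997 to 0.107) and Slc45a3 (0.298 to 0.316) without HepKO replicate 2 or HepWT replicate 1. Cdkn1a (0.166 to 0.294), Dtx4 (0.0997 to 0.279), Insig2 (0.0960 to 0.157), Lgalsl (0.325 to 0.374) and Lingo4 (0.221 to 0.316) were lost without either HepKO replicate or HepWT replicate 1. Asap2 (0.0633 to 0.294) and Mreg (0.0839 to 0.324) were lost without HepKO replicate 1 or either HepWT replicate. Apol9b (0.0742 to 0.359), Loxl4 (0.109 to 0.440) and Trim2 (0.0633 to 0.563) were lost without any of the 4 ZT22 libraries, and these 3, Lgalsl and Lingo4 also without 6 to 17 of the other 20 libraries. Every departure named here kept its sign in all these fits.

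The contrast with the hours on either side was weaker. Against the mean difference of ZT18 and ZT2 alone, all 22 genes kept the sign of their departure, but Npas2 was the only gene that passed (departure -2.18, adjusted p = 0.0458, 0.00579% of the genes tested), with 540 genes at an unadjusted p below 0.05. The Arntl difference was -0.96 at ZT18 and -1.51 at ZT2, which left a departure of -0.08 against those 2 times.

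Seen within each genotype, late night had more calls in HepWT than in HepKO, and these numbers were not tested against each other. HepWT at ZT22 differed from its other 5 times in 301 genes (193 higher and 108 lower, which is 1.12% and 0.625% of those tested, or 1.74% in all). The 193 had a median shift of 0.67 in HepWT and 0.14 in HepKO, where 152 had the same sign, and the 108 had medians of -0.56 and -0.23, with 104 of the same sign. These genes were chosen for their HepWT values, which enlarges the HepWT shifts, so the 2 medians do not compare the genotypes fairly. Of the 301, 21 had a departure that passed. An unadjusted p below 0.05 was reached by 2424 genes in HepWT and 1417 in HepKO. The median absolute shift of all tested genes was 0.157 in HepWT and 0.134 in HepKO (log2). In HepKO 2 genes were called (0.0116%). They were Apol9b and Dmbt1, a secreted mucosal glycoprotein. Dmbt1 was at 41.8 CPM in HepKO replicate 1 and at 0, 0.04 and 0.74 CPM in the other 3 libraries of ZT22, so it rested on the library that also carried the pancreas and adipocyte markers. Without that library HepKO at ZT22 had 0 calls by edgeR (1157 at an unadjusted p below 0.05), as it did without HepKO ZT18 replicate 2 (1367). With all libraries DESeq2 called 51 and limma-voom 1. The count was 25 without HepKO ZT22 replicate 2, and 110 and 136 genes were called in HepWT without its ZT22 replicates 1 and 2.

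Most core clock genes did not pass the test at this hour, although the share called was above that of all tested genes. Of 15 core clock genes, all tested, 1 was called higher in HepKO at ZT22 (Npas2) and 2 lower (Arntl and Bhlhe41), against 0.839% and 0.509% of all tested genes. An unadjusted p below 0.05 was reached by 6 of the 15, and DESeq2 called 1 higher and 4 lower. The median difference of the list was 0.13, that of all tested genes -0.01. Clock, the partner of BMAL1, was at 128 and 144 CPM in HepKO and 121 and 125 CPM in HepWT (log2 0.14). Per2, a repressor, was at 37.5 and 49.0 CPM in HepKO and overlapped with HepWT at 42.5 and 31.9 CPM (log2 0.21). Nr1d1 (REV-ERB alpha) was near its floor in all 4 libraries, at 0.69 and 0.65 CPM in HepKO and 0.67 and 0.54 CPM in HepWT, where it had reached 50.4 CPM at other times.

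Bhlhe41, a repressor that binds E-boxes, had 0 and 0 counts in HepKO and 20 and 10 in HepWT. Against a floor of 3 counts over the HepKO group it was at least 8.58-fold lower (adjusted p = 0.00520), a call lost without HepKO replicate 1 (0.139). Ciart, whose 3 E-boxes are shown above, was at 0.24 and 0.36 CPM in HepKO and 0.94 and 1.07 CPM in HepWT, without overlap but not called (adjusted p = 0.0717). Among 14 clock output genes 1 was lower, the tetraspanin gene Tspan4, at 31.1 and 31.0 CPM in HepKO and 45.6 and 52.8 CPM in HepWT (log2 -0.66 ± 0.16, adjusted p = 0.0462). That call was lost without any of the 4 ZT22 libraries (0.0723 to 0.262). Rgs16, an inhibitor of G protein signalling, had 0 and 0 counts in HepKO and 52 and 4 in HepWT, and was not called (adjusted p = 0.190). Against the same floor the summed counts were at least 16-fold lower in HepKO. That bound rests mostly on HepWT replicate 1 and covers no spread between replicates. Por, the electron donor of cytochromes P450, was at 103 and 107 CPM in HepKO and 179 and 170 CPM in HepWT, without overlap and not called (log2 -0.73 ± 0.21, adjusted p = 0.114). The output list had a median of -0.24, with 6 of 14 genes at an unadjusted p below 0.05 and 3 lower calls by DESeq2. Without HepKO replicate 1 the core clock list held 1 lower call.

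The largest increases at ZT22, 11 of which are described here, were also called higher over the other 5 times, and Loxl4 was the only one with a departure that passed. Grk5 (chromosome 19, 60889749 to 61095968), a kinase that silences G protein-coupled receptors, was at 101 and 122 CPM in HepKO and 12.7 and 14.5 CPM in HepWT. That is an 8.21-fold increase (log2 3.04 ± 0.13, adjusted p = 6.07e-10), against 3.27 over the other times. Hectd2os, a noncoding gene antisense to its neighbour, was at 620 and 630 CPM in HepKO and 48.6 and 28.1 CPM in HepWT (log2 4.03 ± 0.31, adjusted p = 1.65e-06). Without the strand setting, its reads and those of the opposite strand cannot be told apart.

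Among them were 3 genes of detoxification enzymes. Gstm2, a glutathione S-transferase of the mu class on chromosome 3 (107981702 to 107986453), was at 229 and 245 CPM in HepKO and 34.7 and 44.0 CPM in HepWT (log2 2.59 ± 0.19, adjusted p = 7.53e-07). Its neighbour Gstm3 was at 345 and 316 CPM in HepKO and 42.4 and 58.8 CPM in HepWT (log2 2.71 ± 0.33, adjusted p = 0.000299). The cytochrome P450 gene Cyp2c55 was at 141 and 127 CPM in HepKO and 9.45 and 15.7 CPM in HepWT (log2 3.41 ± 0.34, adjusted p = 3.03e-05). All 3 belong to families of similar genes between which reads may have been split.

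Genes of other roles rose as much. Lpl, the lipase that releases fatty acids from lipoproteins, was at 331 and 406 CPM in HepKO and 37.8 and 66.1 CPM in HepWT (log2 2.83 ± 0.46, adjusted p = 0.00298). Ntrk2, the receptor for the neurotrophin BDNF, was at 16.6 and 19.9 CPM in HepKO and 0.51 and 0.37 CPM in HepWT (log2 5.34 ± 0.82, adjusted p = 0.00193). Moxd1, a relative of dopamine beta-hydroxylase, had 1165 and 513 counts in HepKO and 3 and 0 in HepWT. The ratio of those sums was 652, with an exact 95% interval of 223 to 3160 that covers counting error only (adjusted p = 0.0114). Loxl4 was at 62.3 and 73.7 CPM in HepKO and 12.4 and 11.4 CPM in HepWT (log2 2.51 ± 0.20, adjusted p = 2.04e-06). Nckap5 and Defb1 (a defensin) were also among the largest, with log2 differences of 3.32 and 2.50. Calls were lost for Moxd1 without HepWT replicate 1 or 2 (0.102 to 0.124), for Lpl without HepWT replicate 1 (0.0623), and for Defb1 without any of the 4 (0.0985 to 0.170). The limma-voom fit did not call Moxd1 (0.678), Ntrk2 (0.101) or Defb1 (0.0548), and without the 5 HepKO libraries of low depth Lpl (0.0661) and Defb1 (0.270) were lost.

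**Figure D4:**
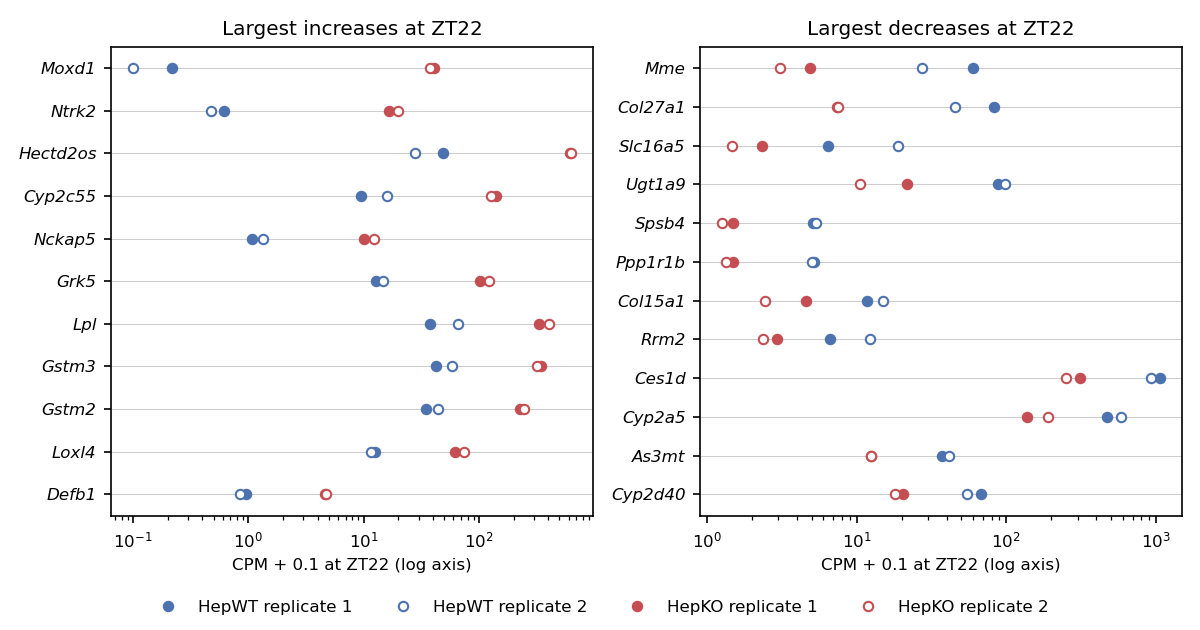
CPM + 0.1 at ZT22 (log axis) of 11 genes with the largest increases and 12 with the largest decreases in HepKO, 1 point a library (blue, HepWT; red, HepKO; filled, replicate 1; open, replicate 2). Red and blue points do not overlap in any of the 23 genes, which the rule for naming them required, and the HepWT replicates of Mme, Col27a1 and Slc16a5 lie farther apart than those of most others.

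The 12 largest decreases were also called lower over the other 5 times, by log2 differences from -3.035 in Slc16a5 to -1.24 in Rrm2, and none had a departure that passed. Mme (chromosome 3, 63241537 to 63386030), which encodes the peptidase neprilysin, was at 4.81 and 2.98 CPM in HepKO and 60.2 and 27.2 CPM in HepWT (log2 -3.43 ± 0.46, adjusted p = 0.000572). Col27a1, a fibrillar collagen gene, was at 7.27 and 7.40 CPM in HepKO and 82.8 and 45.7 CPM in HepWT (log2 -3.13 ± 0.39, adjusted p = 0.000299). In both genes HepWT replicate 1 was the higher of its pair, and both HepKO libraries lay far below the HepWT ones.

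Several of the decreases concern drug and toxin metabolism. Ugt1a9, a glucuronosyltransferase that shares exons with other Ugt1a genes, was at 21.7 and 10.5 CPM in HepKO and 87.9 and 97.7 CPM in HepWT (log2 -2.49 ± 0.31, adjusted p = 0.000299). The carboxylesterase gene Ces1d was at 310 and 252 CPM in HepKO and 1068 and 922 CPM in HepWT (log2 -1.82 ± 0.27, adjusted p = 0.00144). As3mt, which methylates arsenic, was at 12.3 and 12.4 CPM in HepKO and 37.4 and 41.5 CPM in HepWT (log2 -1.67 ± 0.23, adjusted p = 0.000651). The cytochrome P450 genes Cyp2a5 and Cyp2d40 fell by 1.70 and 1.67 on the log2 scale. Slc16a5 (-2.73), Spsb4 (-1.98), Ppp1r1b (-1.92), Col15a1 (-1.91) and Rrm2 (-1.86) made up the 12.

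Of these 12 decreases, 7 were lost in at least 1 fit that left out a ZT22 library. Slc16a5 (0.184 to 0.320), Rrm2 (0.208 to 0.305), Cyp2a5 (0.0569 to 0.193) and Spsb4 (0.0534 to 0.103) were lost without either HepKO replicate or HepWT replicate 2. Ppp1r1b was lost without either HepKO replicate (0.0538 to 0.0623), Col15a1 without HepKO replicate 2 (0.0770), and Cyp2d40 without either HepKO replicate or HepWT replicate 1 (0.0583 to 0.0901). Slc16a5 (0.179) and Rrm2 (0.137) were not called by limma-voom, and without the 5 HepKO libraries of low depth Ces1d was lost as well (0.0756).

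With all libraries, cholesterol synthesis had more calls at ZT22 than any other pathway list. Of 26 genes of cholesterol synthesis and uptake, all tested, 12 were higher in HepKO and none lower, against 0.839% of all tested genes, and all 26 differences were above 0, against 8367 of 17275 tested genes. The median of the list was 0.97 at ZT22 and 0.75 over the other times, beside -0.01 for all tested genes at ZT22. Hmgcs1 (chromosome 13, 119690379 to 119708260), which makes HMG-CoA, was at 1393 and 1159 CPM in HepKO and 303 and 259 CPM in HepWT, a 4.54-fold increase (log2 2.18 ± 0.34, adjusted p = 0.00246). Msmo1, a sterol oxidase late in the pathway, was at 466 and 455 CPM in HepKO and 137 and 114 CPM in HepWT (log2 1.88 ± 0.26, adjusted p = 0.000742).

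The same direction ran through the middle of the pathway. Idi1, the isomerase that makes the isoprenoid unit, was at 140 and 123 CPM in HepKO and 40.1 and 43.6 CPM in HepWT (log2 1.65 ± 0.27, adjusted p = 0.00346). Fdps, which makes farnesyl diphosphate, was at 35.2 and 27.0 CPM in HepKO and 13.5 and 13.5 CPM in HepWT (log2 1.21 ± 0.18, adjusted p = 0.00183). Stard4, a cholesterol carrier gene, overlapped between genotypes (0.12).

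No gene of this list differed more at ZT22 than at other times by the test of the departure, and Insig2 differed less. Msmo1 had the largest departure upward, 0.82 (adjusted p = 0.659). The number of higher calls depended on the libraries: it was 3 without HepKO replicate 1, 9 without HepKO replicate 2, and 4 without HepWT replicate 1 or 2, while the list's median stayed between 0.86 and 1.06. In the same order, the xenobiotic list had 5 higher and 3 lower, 5 and 3, 6 and 5, and 4 and 4, so it held more calls than the cholesterol list in each of these fits except that without HepKO replicate 2. Without HepKO replicate 1, Fdps had an adjusted p of 0.0530, and without HepWT replicate 1, Idi1 had 0.0583.

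**Figure D5:**
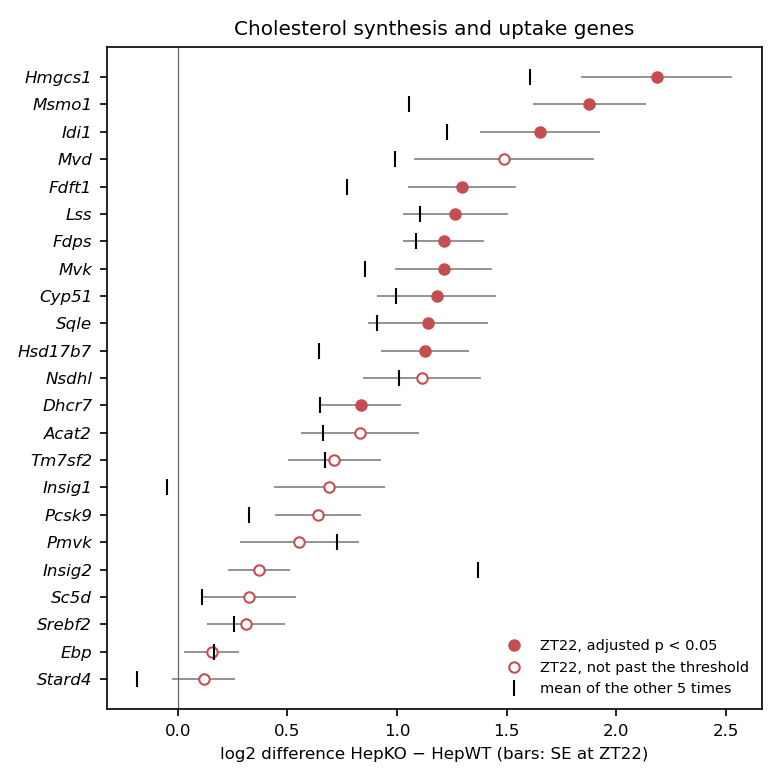
Fitted log2 difference HepKO − HepWT at ZT22 for 23 of the 26 cholesterol genes (circles, filled where the adjusted p was below 0.05; bars, SE), with the mean of the other 5 times as a black tick. All 23 circles lie above 0, from 0.12 in Stard4 to 2.18 in Hmgcs1, and Insig2 is the gene whose tick lies farthest to the right of its circle.

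The calls in the sugar list were downward. Of 26 genes of glycolysis, gluconeogenesis and glycogen, 5 were lower in HepKO (against 0.509% of all tested genes) and 0 higher (against 0.839%). The list's median was -0.18 at ZT22 and -0.25 over the other 5 times. Over those times 12 were called lower and 8 higher, against 12.5% and 12.2% of all tested genes. Gys2 (chromosome 6, 142422613 to 142473109), the glycogen synthase of liver, was at 84.0 and 82.9 CPM in HepKO and 170 and 158 CPM in HepWT (log2 -0.97 ± 0.15, adjusted p = 0.00262). Eno1, a glycolytic enzyme, was at 187 and 203 CPM in HepKO and 367 and 302 CPM in HepWT (log2 -0.78 ± 0.14, adjusted p = 0.00520). Slc37a4, the glucose 6-phosphate transporter, was at 90.4 and 97.3 CPM in HepKO and 177 and 139 CPM in HepWT (log2 -0.75 ± 0.14, adjusted p = 0.00603). The others were Gbe1, the glycogen branching enzyme (-0.64), and Gapdh (-0.53), which was named after its value was seen. Pfkl, a phosphofructokinase, was at a log2 difference of 0.04 and was not called. The list had 1 lower call without HepKO replicate 1 or HepWT replicate 1, and Gys2 alone of those named kept its call without each ZT22 library. Eno1 (0.0749 to 0.0844) and Slc37a4 (0.0927 to 0.0991) were lost without HepKO replicate 1 or HepWT replicate 1, and Gbe1 also without HepKO replicate 2 (0.223 to 0.255).

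In 2 further lists of lipid genes the few calls were downward, against 0.509% of all tested genes called lower. Among 24 genes for making fatty acids and triglycerides 2 were lower, with a median of -0.41. Over the other 5 times the list's median was -0.44, with 14 called lower and 2 higher, against 12.5% and 12.2% of all tested genes. Pklr, the liver pyruvate kinase, was at 104 and 112 CPM in HepKO and 351 and 193 CPM in HepWT (log2 -1.33 ± 0.30, adjusted p = 0.0364). Mlxipl, which encodes the sugar-sensing factor ChREBP that activates Pklr, was at 128 and 123 CPM in HepKO and 243 and 167 CPM in HepWT (log2 -0.71 ± 0.17, adjusted p = 0.0486). Of 36 PPARA targets and genes of fatty acid oxidation 2 were lower, with a median of -0.23. Over the other 5 times the median of these 36 was -0.39, with 25 called lower and 2 higher. Cpt1a, the gate for fatty acids into mitochondria, was at 172 and 163 CPM in HepKO and 237 and 253 CPM in HepWT (log2 -0.55 ± 0.13, adjusted p = 0.0364). Acaa1a, a peroxisomal thiolase, was at 71.99 and 70.1 CPM in HepKO and 109 and 95.8 CPM in HepWT (log2 -0.53 ± 0.11, adjusted p = 0.0192). Pklr (0.187 to 0.267), Mlxipl (0.208 to 0.326) and Acaa1a (0.132 to 0.160) lost their calls without either HepKO replicate or HepWT replicate 1, and Cpt1a without any of the 4 libraries (0.0927 to 0.252).

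The calls in the amino acid list were upward. Of 32 genes of amino acid breakdown and the urea cycle 3 were higher (against 0.839% of all tested genes) and none lower (against 0.509%), with a median of 0.22. Oat (chromosome 7, 132557478 to 132576398), ornithine aminotransferase, was at 1811 and 2149 CPM in HepKO and 422 and 477 CPM in HepWT, a 4.41-fold increase (log2 2.14 ± 0.30, adjusted p = 0.000742), a call that ended when the 5 low-depth HepKO libraries were left out (0.0586). Agxt, which detoxifies glyoxylate, was at 354 and 323 CPM in HepKO and 141 and 140 CPM in HepWT (log2 1.27 ± 0.16, adjusted p = 0.000299). Cbs, the first enzyme of transsulfuration, was higher by 0.79 ± 0.17 (adjusted p = 0.0256), a call lost without any of the 4 libraries (0.0811 to 0.159). The xenobiotic list was called in both directions: of 42 genes tested, 5 were higher (Gstm1, Gstm2, Gstm3, Cyp2c29 and Cyp2c55) and 5 lower (Ces1d, Cyp2a5, Cyp3a13, Fmo1 and Sult1a1), with a median of 0.06, against 0.839% and 0.509% of all tested genes. Gstm1, Cyp2c29, Cyp3a13 and Sult1a1 were named after their values were seen.

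Many pathway lists gave no call at ZT22, where 1.35% of all tested genes were called, so lists of this size may well hold none. None of the tested genes was called among 20 of bile acid synthesis and transport, 18 of fasting and FOXO, 25 of endoplasmic reticulum folding, 19 heat shock genes, 15 ATF4 targets, 43 of oxidative phosphorylation, 27 interferon genes and 22 acute phase genes, under edgeR's quasi-likelihood test. The 78 cytosolic ribosomal protein genes had no call either, although 71 were above 0 (median 0.10). Over these 9 lists, 21 of 267 tested genes had an unadjusted p below 0.05, beside 2066 of all 17275 tested genes. DESeq2 called 2 of the 267 and limma-voom 0. Over the other 5 times 59 of those 78 ribosomal protein genes had been called higher, against 12.2% of all tested genes, with a median of 0.18. Fkbp5, a chaperone induced by glucocorticoids, was the only call among 15 glucocorticoid-responsive genes, against 0.509% of all tested genes called lower. It was at 17.2 and 17.2 CPM in HepKO and 49.1 and 47.9 CPM in HepWT (log2 -1.49 ± 0.31, adjusted p = 0.0208). That call was lost without any of the 4 libraries (0.0844 to 0.176). Among 30 cell cycle genes Rrm2 was the only call, against the same 0.509%. The list's summed level was 271 and 259 CPM in HepKO and 170 and 367 CPM in HepWT, so that HepWT replicate 2 stood above both HepKO libraries and HepWT replicate 1 below them.

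Of all tested genes 0.839% were called higher and 0.509% lower at ZT22. The 10 hepatocyte markers were detected at ZT22, and 1 was called, the plasma protein gene Alb, which is also the 1 call among 22 secreted liver proteins. It was lower, at 31450 and 25000 CPM in HepKO and 58850 and 75210 CPM in HepWT (log2 -1.25 ± 0.22, adjusted p = 0.00451). The Cre transgene uses this gene's promoter, and the call was lost without HepKO replicate 2 or HepWT replicate 2 (0.0541 to 0.0911). Of 17 Kupffer cell and macrophage markers 1 was called higher, Mpeg1 (log2 0.86 ± 0.20, adjusted p = 0.0351), while the median of that list was -0.30. Its call was lost without HepKO replicate 2 or either HepWT replicate (0.0760 to 0.305). No marker was called among 14 of endothelium, 15 of stellate cells and fibroblasts, 8 of cholangiocytes, 11 of T and NK cells, 8 of B and plasma cells, 3 of neutrophils, 6 of erythroid cells and 5 of adipocytes. Of these 70 genes 7 had an unadjusted p below 0.05, beside 2066 of all 17275 tested genes, and neither DESeq2 nor limma-voom called any. The adipocyte list had a median of 3.58 at ZT22 and -0.39 over the other times. Without HepKO ZT22 replicate 1, the library that carried adipocyte RNA, its median at ZT22 was -0.205. Cela1, an elastase on the pancreas list, was at 33.9 and 39.0 CPM in HepKO and 10.2 and 10.9 CPM in HepWT (log2 1.78 ± 0.23, adjusted p = 0.000353). It was as high in HepKO replicate 2, where Pnlip, Cpa1 and Prss2 had 0 counts, as in replicate 1, and it kept its call without either.

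Some of the largest changes belong to genes known to differ between male and female liver. Of 20 male-biased genes tested 1 was called higher (Moxd1), and of 21 female-biased genes 2 were higher (Ntrk2 and Lpl) and 2 lower (Fmo1 and Slc22a26), with medians of 0.27 and -0.85, where 0.839% of all tested genes were called higher and 0.509% lower. Slc22a26, an organic anion transporter, had 3 and 0 counts in HepKO and 17 and 161 in HepWT. The ratio of the sums was 50.9 with an exact 95% counting interval of 17.1 to 249, and the call (adjusted p = 0.0484) was lost without either HepKO replicate or HepWT replicate 2 (0.255 to 0.444). Fmo1, a flavin monooxygenase, was at 109 and 120 CPM in HepKO and 191 and 220 CPM in HepWT (log2 -0.85 ± 0.14, adjusted p = 0.00272), a call lost without HepKO replicate 1 (0.0534).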

How the data were processed

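The authors deposited raw counts as whole numbers for each Ensembl gene in each library. Per the submitters' processing notes, reads were aligned with STAR 2.4.0i to mm10; per the labels' protocols, libraries came from a stranded kit after ribosomal RNA depletion. Counting tool, annotation and strand setting: not given in the sources used here. A suffix without explanation in the labels marks 5 HepKO replicate 2 columns, and these libraries were the least deep (at most 16910415 counts).

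Counts were fitted with edgeR 4.0.16 (R 4.3.3, limma 3.58.1): scaling by TMM, a filter by group with filterByExpr (17275 of 35304 genes kept at a minimum count of 10 and a minimum total of 15), 1 level per genotype and time over all 24 libraries (12 residual degrees of freedom), and the two-sided quasi-likelihood F test with Benjamini-Hochberg adjustment over all tested genes at 0.05. Fold changes are fitted values. A fit without a ZT22 library assumes that the lone library varies like the other groups. Alternatives included DESeq2 1.42.0, limma-voom, other filters, a replicate block and leaving out each library; list counts without single libraries were added after seeing the data. The scripts were tested on simulated data. Positions are from GENCODE M21 (GRCm38), with 17256 of the tested genes matched; the authors may have counted on another annotation.

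Genes named were the clock lists, the 12 largest ZT22 increases and decreases (adjusted p below 0.05, mean log2 CPM of at least 1, no overlap), up to 12 departures a direction and the 4 smallest p of each list; predicted models were counted, not named. Some genes that this rule or the lists hold are not reported here; counts and medians include them. By this rule 7 of the 19 negative departures would stay unnamed, and they were named after their values were seen. The members, 22 pathway lists and 11 marker lists were chosen with earlier results of these data known. Counting intervals are exact (Clopper-Pearson) and cover counting error only, since reads amplified by PCR and carrying no molecular identifiers are not separate molecules.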

Additional observations from a re-analysis of the deposited data

Results flagged for a closer look

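The genotype difference at ZT22 departed from that of the other 5 times, by a test of the difference itself, in 22 genes, of which 21 are named. The core clock genes named here with a negative departure were Npas2 (-3.60, log2), Cry1 (-1.65) and Arntl (-1.63). Departures below -2 were also found for Slc34a2 (-3.36) and Cdkn1a (-2.49). Between -2 and -1.1 lay Lingo4 (-1.66), Ppard (-1.53), Avpr1a (-1.39), Clpx (-1.22), Slc45a3 (-1.20), Loxl4 (-1.19) and Asap2 (-1.17). The smaller ones were Lgalsl (-1.07), Dtx4 (-1.02), Insig2 (-0.999), Lrfn3 (-0.95), Mreg (-0.66) and Trim2 (-0.62). Positive departures were those of Dbp (1.83), Nr1d2 (1.26) and Apol9b (0.75). With 2 libraries a group, no group was large enough to be examined for single libraries far from the rest.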

How the results depend on the processing

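Numbers of calls at ZT22 changed with the processing, whereas called genes kept their direction. That says little about stability. In all 145 higher and 88 lower calls the HepKO libraries of ZT22 did not overlap with the HepWT libraries. Refitting the same libraries could therefore hardly reverse a sign. The departures were likewise chosen by a test on these libraries. Among genes not called at ZT22 some signs reversed, as given below. All 233 genes called at ZT22 and all 22 departures kept their sign with DESeq2, limma-voom, RLE size factors, no filter and the replicate block; a filter of 1 CPM in 4 libraries kept 230 of the 233 genes, with their sign. Of 48 calls at ZT22 that the rule for naming gave, 20 held without each of the 4 ZT22 libraries; of these, limma-voom lost Ntrk2 (0.101), and Ces1d (0.0756) and Oat (0.0586) were lost when the 5 low-depth HepKO libraries were left out. DESeq2 called 277 genes higher and 174 lower at ZT22, 6 positive and 40 negative departures, and 51 genes within HepKO. With no filter on low counts these were 486, 514, 157, 190 and 479, and 1008 within HepWT. The ZT22 libraries alone gave 77 and 42. Without the 5 HepKO libraries of low depth there were 58 higher, 22 lower, 0 and 5 departures, 146 genes within HepWT and 17 within HepKO. Against ZT18 and ZT2 only there were 0 positive and 1 negative departures. Within HepKO, limma-voom, the 1 CPM filter and the replicate block each gave 1.

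Leaving out 1 of the 4 ZT22 libraries gave 61 to 93 higher and 33 to 64 lower genes at ZT22, and leaving out 1 of the other 20 gave 192 to 285 calls there. Leaving out any 1 of the 24 gave 1 to 6 positive and 6 to 24 negative departures, 110 to 356 genes within HepWT and 0 to 25 within HepKO. Each of these fits has fewer residual degrees of freedom, and without a ZT22 library 1 group of the ZT22 contrast rests on a single library. The cause of the changed counts was not tested. A replicate block gave 249 calls at ZT22, 222 of them shared, and 19 departures, all shared. Deviations of same-numbered libraries correlated between -0.236 and 0.427 over 66 pairs of groups, so the numbers were not taken to pair the samples.

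Among genes not called at ZT22, signs reversed in 14 cases. Leaving out 1 ZT22 library, the log2 difference ran from -0.089 to 0.642 in Per1, -0.196 to 0.405 in Bhlhe40, -0.506 to 0.068 in Hlf, -0.222 to 0.206 in Wee1, -0.081 to 0.058 in Leo1 and -0.158 to 0.530 in Tfrc. The replicate block within genotype gave -0.052 in Nr1d1, 0.033 in Leo1 and -0.013 in Tfrc. Without the 5 low-depth libraries Bhlhe40 was at -0.205 and Tfrc at -0.099.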
